A study of Triticum aestivum with 12 samples.

Results

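Expression of 6 probe sets for expansins and other proteins of cell wall growth was examined in developing grains of bread wheat, out of 61290 probe sets on the Affymetrix GeneChip Wheat Genome Array. They comprise 2 probe sets for a beta-expansin (Ta.3749.1.S1_at and Ta.3749.1.S1_s_at), 1 for an expansin precursor (Ta.3729.1.A1_at), 1 for a glycine-rich cell wall structural protein (Ta.1751.2.S1_x_at), 1 for an endoglucanase (Ta.9990.1.S1_x_at) and 1 for a gibberellin-regulated protein of the GASA family (Ta.30685.1.S1_s_at). In these identifiers the first number is the cluster, the second the transcript within it, and the ending the kind of probe set. The 6 were chosen with their values in these arrays known, as wall proteins whose level differed between the genotypes in opposite ways or to different extents at the 2 stages. Their own differences are therefore given as a description, with no test. Functions are the putative ones in the study's table, which lists 5 of the 6, and Ta.3749.1.S1_at takes its function from the other probe set of its transcript. In the platform annotation the 3 expansin probe sets share 1 gene, LOC606352, and no further probe set is annotated to it. That annotation gives a gene for only 1273 probe sets of the array. The other 3 of the 6 have no gene given, so the functions could not be checked against a second source.

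Grains of IITR26, a landrace with a high mineral concentration in the grain, were compared with grains of WL711, a modern cultivar with a low one, both grown in the field. Spikes were harvested 14 and 28 days after anthesis (DAA), the first in mid grain filling and the second before the grain dries. Each of the 4 groups (IITR26 at 14 DAA, IITR26 at 28 DAA, WL711 at 14 DAA and WL711 at 28 DAA) had 3 arrays, 12 in all, and each RNA sample came from 3 whole grains. No group received a treatment, and each genotype is a single line. The values are log2 values in which the median of every probe set over the 12 arrays is 0, so a value of 1 is a level 2-fold above that probe set's own median. Differences between arrays can be read from them, whereas the brightness of a probe set cannot. For this reason neither the presence of a transcript nor the grain identity of the samples could be checked, and no level was set beside that of another probe set. In RNA of whole grains, fewer cells of a type and less RNA per cell cannot be told apart.

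The correlation between replicate arrays differed between the groups. It was taken over the centred values, so it also depends on how far a group lies from the median of the 12 arrays. Over 61179 probe sets without the Affymetrix controls, the replicates of young WL711 grains had a Pearson's r of 0.883 to 0.903 with each other, those of old IITR26 grains 0.831 to 0.879, those of young IITR26 grains 0.590 to 0.729 and those of old WL711 grains 0.286 to 0.672. In the last group, WL711 at 28 DAA, replicate 1 stood apart, and the differences of the 6 probe sets that include this array are also given without it. Tests on other probe sets used limma in 1 model over the 12 arrays, and the p-values were adjusted by the Benjamini-Hochberg method across the 61179. A call needed both an adjusted p no larger than 0.01 and a log2 difference of 2 or more in size.

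Growing plant cells enlarge when their wall yields to turgor. Expansins loosen the wall without cutting its polysaccharides, by weakening the contacts between cellulose and the matrix glycans, and the beta-expansins are especially numerous in grasses. Endoglucanases cut beta-glucan chains within the wall, glycine-rich proteins form part of its structural protein network, and GASA proteins are small secreted cysteine-rich peptides, many of which respond to the growth hormone gibberellin. In the cereal grain, cell expansion accompanies the filling of the endosperm and gives way to maturation and drying.

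The beta-expansin was highest in young IITR26 grains and by far lowest in old IITR26 grains. The probe set with the suffix at had log2 values of 2.66, 2.15 and 2.88 in replicates 1, 2 and 3 of young (14 DAA) IITR26 grains, and of -3.53, -3.68 and -3.83 in old (28 DAA) ones. Young WL711 grains had -0.21, 0.17 and -0.24, and old WL711 grains -0.17, 0.46 and 1.99. All 3 young IITR26 arrays lay above every other array and all 3 old ones below every other array, while the WL711 stages overlapped, with 1 old WL711 array far above the other 2. The mean in IITR26 was 75.8-fold lower at 28 than at 14 DAA (log2 difference -6.24). Against WL711 it was 6.31-fold higher at 14 DAA (log2 difference 2.66) and 21.7-fold lower at 28 DAA (-4.44, and -4.91 without replicate 1 of old WL711 grains). The WL711 stages differed by 0.85, or 1.32 without that array. The array far above the other 2 was, however, replicate 3, and leaving out replicate 1 widened both differences. Without replicate 3 of old WL711 grains the genotype difference shifted by -6.48 from 14 to 28 DAA, against -7.10 with all arrays.

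The second beta-expansin probe set, whose suffix s_at marks probes shared by several transcripts, gave the widest differences of the 6 at 28 DAA and between the stages of IITR26, though not at 14 DAA or between the stages of WL711. Young IITR26 grains had log2 values of 2.35, 2.01 and 2.88 and old ones -4.48, -5.31 and -4.98, against -0.79, -0.22 and -0.56 in young and 0.22, 1.02 and 1.75 in old WL711 grains. No 2 groups overlapped. The level in IITR26 was 162-fold lower at 28 than at 14 DAA (-7.34), and at 28 DAA it was 60.6-fold lower than in WL711 (-5.92, and -6.31 without replicate 1 of old WL711 grains). In WL711 the stages differed by 1.52 the other way, or 1.91 without that array. Over the 12 arrays the 2 beta-expansin probe sets had a Pearson's r of 0.989, as a description, since they were designed on the same transcript.

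The expansin precursor crossed over between the genotypes. In IITR26 its log2 values were 2.04, 0.99 and 3.18 in young grains and -1.46, -1.93 and -1.85 in old ones. In WL711 they were -1.05, -1.15 and -0.99 in young grains and 1.42, 2.27 and 2.49 in old ones. Young IITR26 and old WL711 grains overlapped at the top, with means of 2.07 ± 1.10 (SD, n = 3) and 2.06 ± 0.57, and the other groups stood apart below them. The difference between genotypes was 3.13 at 14 DAA and -3.81 at 28 DAA (-4.13 without replicate 1 of old WL711 grains). The change from 14 to 28 DAA was -3.82 in IITR26, 14.1-fold, and 3.12 in WL711, 8.69-fold (3.44 on the log2 scale without that array), so the expansin precursor was lower in the older landrace grains and higher in the older cultivar grains. Although the annotation gives it the gene of the beta-expansin, its change in IITR26 was smaller than the -6.24 and -7.34 of the beta-expansin probe sets, and its r with them was 0.835 and 0.863.

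**Figure D1:**
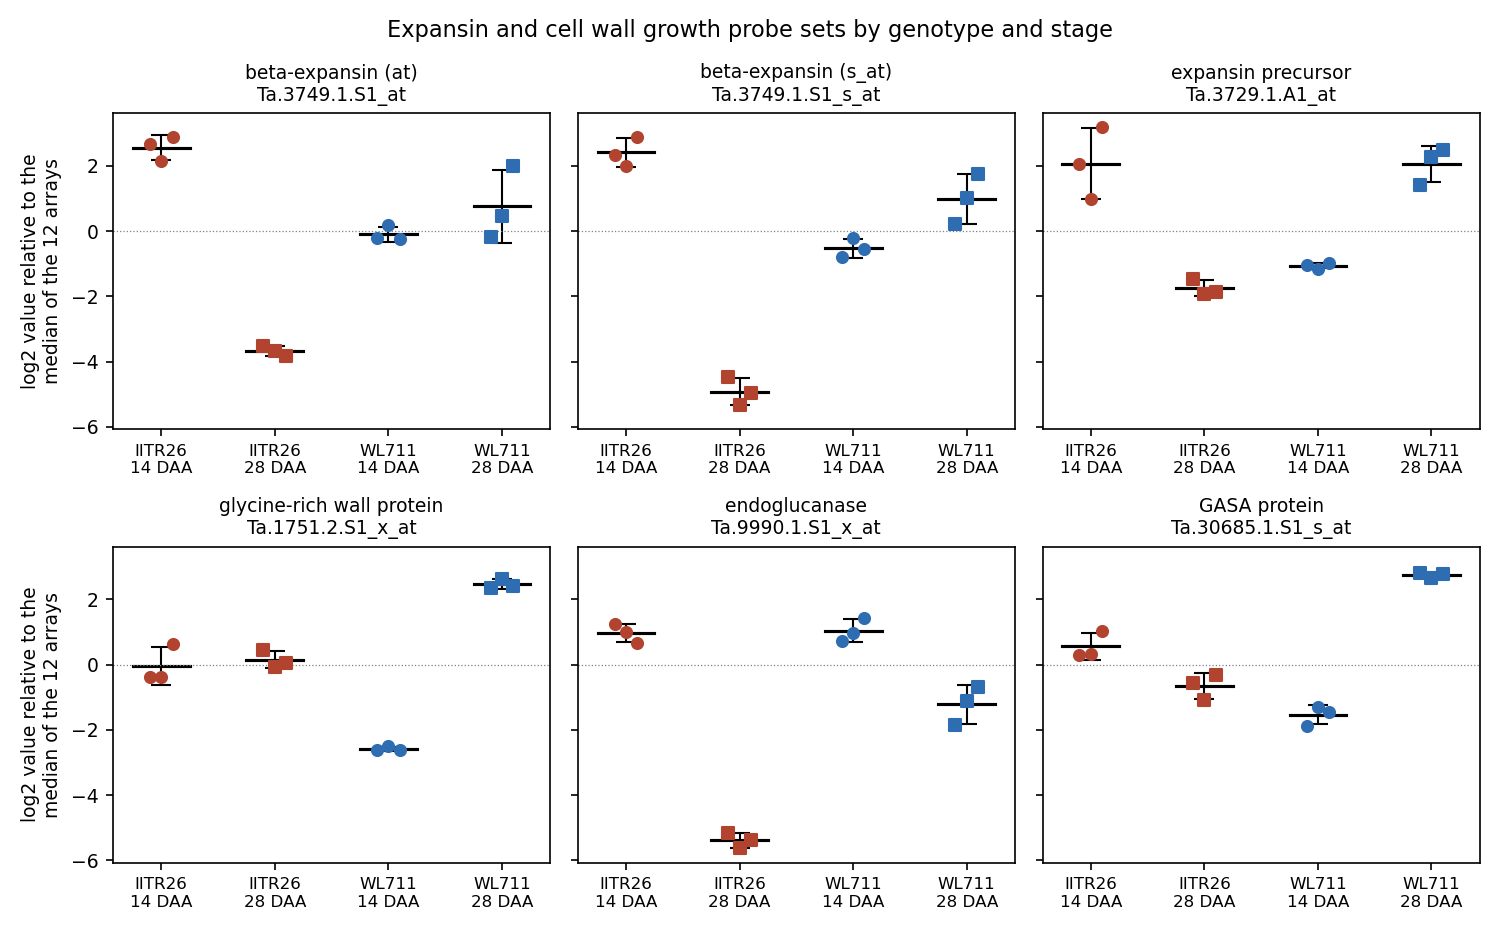
Log2 value of each of the 6 probe sets, relative to its own median over the 12 arrays, by genotype and stage (DAA, days after anthesis). Points are single arrays, horizontal bars the mean and error bars the SD of 3 arrays. The beta-expansin and the endoglucanase reach their lowest values, -3.53 and below, in IITR26 at 28 DAA, and the glycine-rich and GASA proteins reach their highest, 2.34 and above, in WL711 at 28 DAA.

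The endoglucanase had overlapping values in the genotypes at 14 DAA and lay apart at 28 DAA. At 14 DAA its log2 values were 1.24, 0.98 and 0.67 in IITR26 and 0.73, 0.97 and 1.42 in WL711. At 28 DAA they were -5.15, -5.63 and -5.38 in IITR26 and -1.87, -1.13 and -0.67 in WL711. Older grains of both genotypes were thus lower than younger ones, by 81.9-fold in IITR26 (-6.36) and 4.80-fold in WL711 (-2.26, and -1.94 without replicate 1 of WL711 at 28 DAA). The difference between genotypes was -0.07 at 14 DAA and -4.17 at 28 DAA (-4.49 without that array). It was the only probe set of the 6 that was not higher in IITR26 at 14 DAA.

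The glycine-rich wall protein differed between the stages in WL711 and hardly in IITR26. Young WL711 grains had log2 values of -2.63, -2.51 and -2.63 and old ones 2.34, 2.63 and 2.42, a 33.2-fold higher level (5.05). Young IITR26 grains had -0.39, -0.38 and 0.65 and old ones 0.45, -0.06 and 0.06. The IITR26 stages overlapped, with a difference of 0.19, and both lay between the WL711 stages. IITR26 was therefore 2.55 above WL711 at 14 DAA and below it at 28 DAA (-2.31) without a difference of its own between stages. The lowest value was tied, within 0.0001, on 2 of the 3 young WL711 arrays. Such a tie at the lowest value occurred in 6346 probe sets (10.4%), and a tie at the highest in 576 (0.941%). Whether the tied values are a floor of the processing was not tested, and the 33.2-fold difference has this limit. Without replicate 1 of old WL711 grains the difference between the WL711 stages was 5.11 and that between genotypes at 28 DAA -2.37.

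The GASA protein was highest in old WL711 grains, which had log2 values of 2.80, 2.66 and 2.77, against -1.87, -1.31 and -1.44 in young ones. In IITR26 the values were 0.31, 0.32 and 1.03 in young and -0.56, -1.09 and -0.31 in old grains. No 2 groups overlapped, and old WL711 grains were 19.5-fold above young ones (4.29). The difference between genotypes was 2.10 at 14 DAA and -3.40 at 28 DAA, and the stages of IITR26 differed by -1.21. Without replicate 1 of old WL711 grains the difference was -3.37 between genotypes at 28 DAA and 4.26 between the WL711 stages.

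Set side by side, 5 of the 6 probe sets had a mean at least 2 higher in IITR26 than in WL711 at 14 DAA, without overlap of the arrays, and all 6 had one at least 2 lower at 28 DAA, again without overlap. Over all 61179 probe sets, a mean at least 2 higher at 14 DAA was found in 0.651% and one at least 2 lower at 28 DAA in 0.883%, and the genotypes did not overlap in these directions in 15.9% and 14.8%. These shares are given as the background only, because the 6 were chosen on the same comparisons. The median difference was 2.60 (-0.07 to 3.13) at 14 DAA and -3.99 (-5.92 to -2.31) at 28 DAA, where the median of all probe sets was 0.0098 and -0.0001. From 14 to 28 DAA, 4 of the 6 were lower by at least 2 in IITR26 (1.61% of all probe sets were). In WL711, 3 of the 6 were higher by at least 2 (1.01%) and the endoglucanase alone was lower by as much (1.39%). The 3 higher by at least 2 in older WL711 grains were the expansin precursor, the glycine-rich protein and the GASA protein. The beta-expansin probe sets were higher there by 0.85, with overlapping arrays, and by 1.52.

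The 6 profiles differed in how closely they ran together. Over the 12 arrays the beta-expansin probe sets had an r of 0.865 and 0.857 with the endoglucanase, with which they shared the very low values in old IITR26 grains. The glycine-rich and GASA proteins had an r of 0.919 with each other, and they shared the high values in old WL711 grains. Between these pairs r was -0.35 for the glycine-rich protein and the endoglucanase and 0.021 for the GASA protein and the endoglucanase. The beta-expansin probe sets had an r of 0.095 and 0.161 with the glycine-rich protein and of 0.414 and 0.489 with the GASA protein. The expansin precursor was lowest in old IITR26 grains, with a mean of only -1.75, and as high in old WL711 as in young IITR26 grains. Its r with the other 5 was 0.494 to 0.863. These r describe 12 arrays that share groups and normalization, and no p is given. A repeated quantile normalization, which forces all arrays to 1 distribution, kept the sign of all 6 at 28 DAA but widened the expansin differences at 14 DAA to 4.28, 4.50 and 4.51, lowered that of the glycine-rich protein to 1.98 and turned that of the endoglucanase to 0.73.

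The array holds 8 further probe sets whose identifiers place them in the clusters of the glycine-rich protein, the endoglucanase or the GASA protein, and which the choice did not name. They can be tested, but they may share probes or transcripts with those described and are not independent of them. At 28 DAA, 3 of the 8 were lower in IITR26 and 0 were higher (over all probe sets 0.804% were called lower and 0.566% higher). At 14 DAA limma called 0 of the 8 (0.595% of all probe sets were called higher and 0.772% lower), with 3 higher at an unadjusted p under 0.05, and the unpaired test of the methods after Benjamini-Hochberg called 0 as well. Of the changes from 14 to 28 DAA, 5 of the 8 rose and 1 fell in WL711 (0.958% and 1.34% of all), while in IITR26 1 fell (1.59%) and 0 rose (1.33%), with 1 higher at an unadjusted p under 0.05 and 0 rising by the unpaired test. The unpaired test of the methods after Benjamini-Hochberg called 0 in place of the 3 lower at 28 DAA, and in WL711 2 in place of the 5 that rose and 0 in place of the 1 that fell. Without that adjustment the test left the counts the same or close to those of limma. For 5 of the 8 the difference between genotypes was lower at 28 than at 14 DAA in limma's interaction (0.796% of all).

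In the GASA cluster, a second probe set of the same transcript, with the suffix x_at, rose by 4.24 ± 0.19 (limma standard error, n = 3 arrays per group) from 14 to 28 DAA in WL711, with an adjusted p of 7.1e-08 from limma, and was lower in IITR26 than in WL711 at 28 DAA (-2.31, adjusted p 1.0e-05). In IITR26, however, its values were 0.84 higher at 28 than at 14 DAA, where the s_at probe set had a difference of -1.21. The 2 probe sets therefore gave opposite directions for the stages of the landrace, although their r over the 12 arrays was 0.880. A probe set of another transcript of the cluster rose by 2.49 ± 0.25 in WL711 (adjusted p 2.8e-05), and its -1.76 between genotypes at 28 DAA did not reach the fold threshold.

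The 3 further probe sets of the glycine-rich cluster all rose in WL711 from 14 to 28 DAA by limma. Those of 2 other transcripts rose by 3.91 ± 0.28 (adjusted p 1.9e-06) and 2.89 ± 0.31 (adjusted p 4.0e-05), and the second one on the transcript described above rose by 2.38 ± 0.30 (adjusted p 0.00016). In IITR26 their differences between stages were -0.24, 0.15 and 0.38 with overlapping arrays, as for the probe set described above. The flat course in the landrace and the rise in the cultivar were thus seen with all 4 probe sets of this cluster. At 28 DAA, with all arrays, only the first of them was called lower in IITR26 (-2.72, adjusted p 5.7e-05 by limma). Without replicate 1 of WL711 at 28 DAA the one that rose by 2.89 was called as well (-2.11, adjusted p 0.00018 by limma, against -1.73 with all arrays). On the second probe set of the same transcript all 3 young WL711 arrays held the same lowest value of -0.63.

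A second probe set on the transcript of the endoglucanase, with an r of 0.997 to the first, fell by 6.51 ± 0.32 in IITR26 (adjusted p 1.2e-07 by limma) and by 2.12 ± 0.32 in WL711 (adjusted p 0.00053), and was lower in IITR26 at 28 DAA (-4.50, adjusted p 3.5e-06). The fall in WL711 was -1.95 without replicate 3 of WL711 at 14 DAA and -1.86 without replicate 1 at 28 DAA, short of the fold threshold. Of the other transcripts of the cluster, one had differences between -0.24 and 0.18 in the genotype and stage comparisons, with overlap in all of them. Another was lower in the older grains of both genotypes without overlap of the arrays, with differences of -1.33 in IITR26 and -1.76 in WL711 that were under the fold threshold (-2.08 in WL711 without replicate 1 of WL711 at 14 DAA, adjusted p 0.00016 by limma, which passed it), and its genotypes overlapped at both stages.

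**Figure D2:**
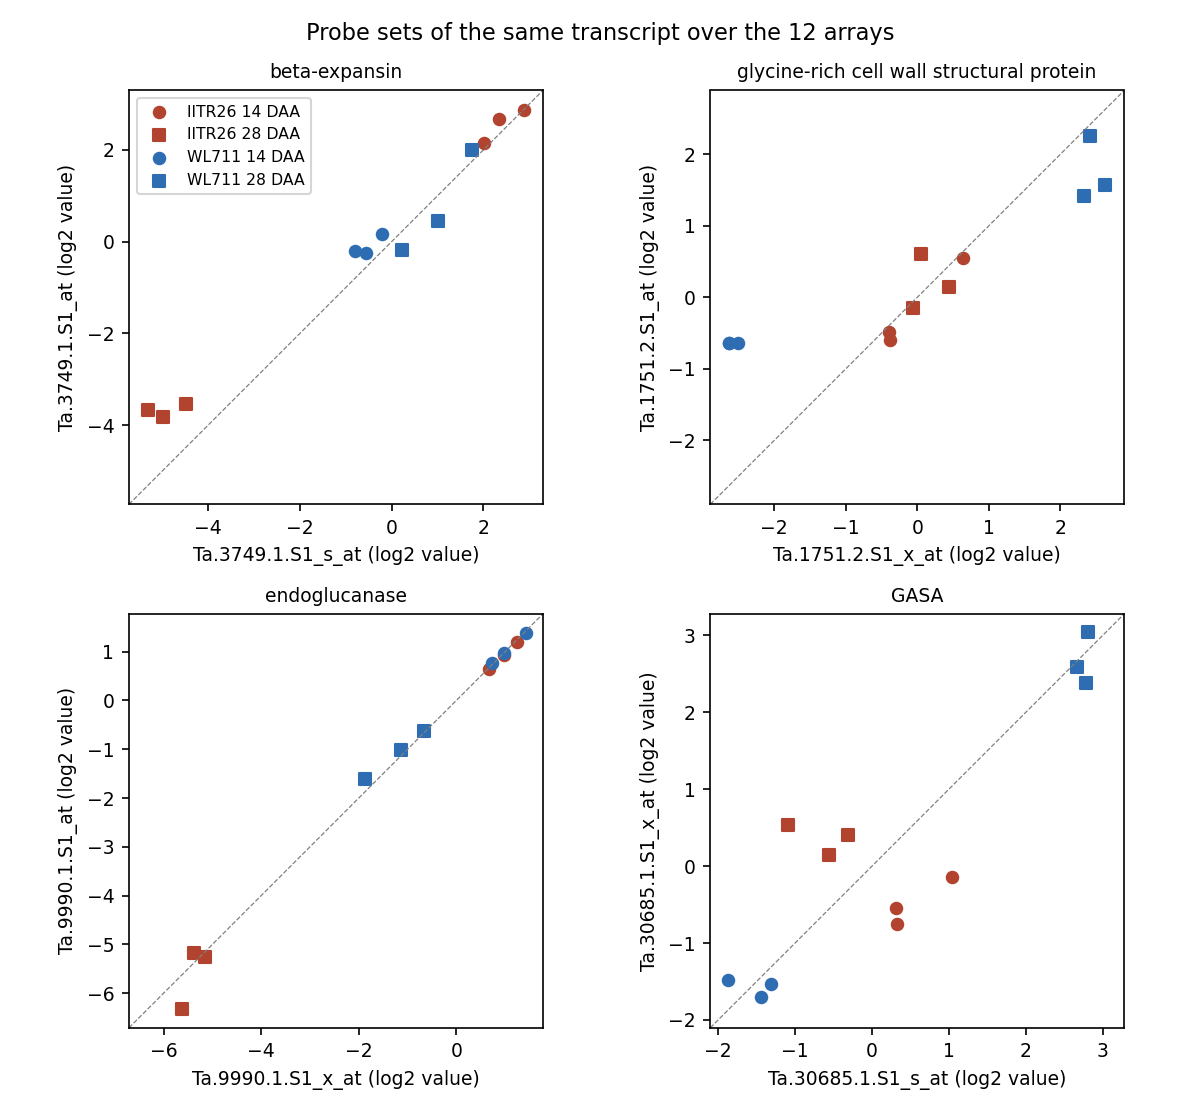
Log2 values of a described probe set (horizontal axis) and of a second probe set on the same transcript (vertical axis) over the 12 arrays, each relative to its own median. Colours give the genotype, circles 14 DAA and squares 28 DAA, and the dashed line marks equal values. The endoglucanase pair lies along the line (r 0.997), whereas for the GASA protein the IITR26 stages swap places between the 2 probe sets and for the glycine-rich protein the young WL711 arrays reach -2.63 on one probe set and -0.63 on the other.

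The study's function table holds 4 more expansin probe sets, and 3 of them were high in young WL711 grains only, a course different from that of the beta-expansin. The study chose that table on the genotype differences of these arrays, so the directions in it are no independent evidence. One named expansin, with the suffix s_at, had log2 values of 5.24, 5.23 and 4.68 in WL711 at 14 DAA, while the other 9 arrays lay between -0.71 and 0.50. The genotype difference was -4.71 ± 0.18 at 14 DAA (adjusted p 2.9e-08 by limma) and -0.05 at 28 DAA (adjusted p 0.91), and the level fell by 5.47 in WL711 (adjusted p 1.1e-08). The other 2 expansins, both with the suffix at, were likewise high in young WL711 grains alone, with means of 3.30 ± 0.17 and 2.39 ± 0.47 (SD, n = 3), and were called lower in IITR26 at 14 DAA (adjusted p 1.9e-06 and 3.4e-05). Thus 3 of the 4 were called lower at 14 DAA, where 0.772% of all probe sets were. None of these 3 was called in IITR26 between the stages, where their differences were -0.80, -0.19 and 0.44 (1.59% of all probe sets fell there and 1.33% rose).

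The fourth, EXPB2, crossed over between the genotypes as the expansin precursor and the GASA protein did, on a smaller scale. Its r over the 12 arrays was 0.933 with the GASA protein. It was not among the 6 named probe sets most like the expansin precursor, which had an r of 0.915 or more. Young IITR26 grains had log2 values of 0.28, 0.13 and 1.09 and old ones -0.60, -0.63 and -0.50, against -0.34, -0.13 and -0.34 in young WL711 grains and a mean of 1.60 ± 0.09 (SD, n = 3) in old ones. Old WL711 grains lay above all others and old IITR26 grains below all others. The genotype difference was -2.17 ± 0.20 at 28 DAA (adjusted p 2.3e-05 by limma), and the 0.77 at 14 DAA was not called (adjusted p 0.025). The interaction was -2.94 ± 0.28 for EXPB2 (adjusted p 7.9e-05) and 2.89 to 4.67 for the other 3 expansins (adjusted p 2.8e-06 to 0.00027), which are among the 0.729% of all probe sets called higher in the interaction. Expansin probe sets of the 2 genotypes therefore parted both ways at 14 DAA, with LOC606352 higher in IITR26 and the 3 others higher in WL711.

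**Figure D3:**
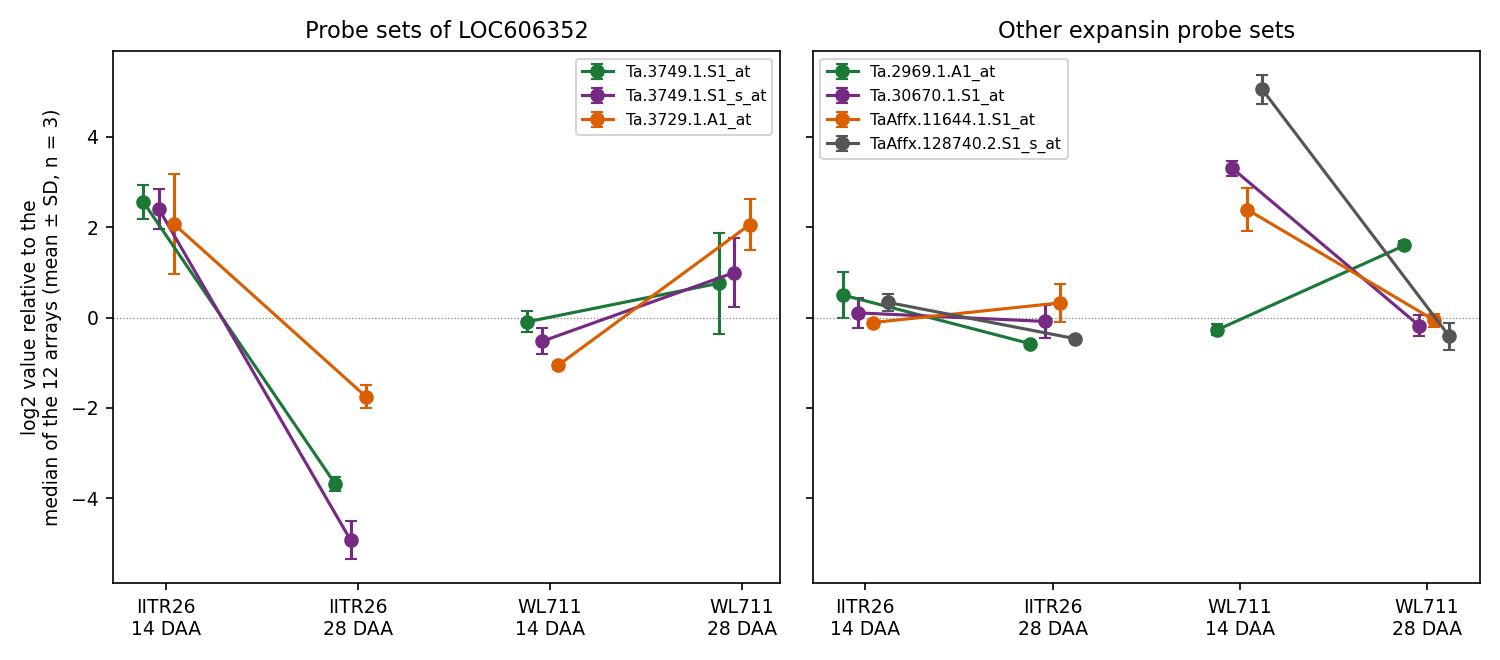
Log2 values of the 3 expansin probe sets of LOC606352 (left) and of the 4 other expansin probe sets of the study's function table (right), each relative to its own median over the 12 arrays. Points are means and error bars the SD of 3 arrays, and lines join the 2 stages of a genotype. On the left the IITR26 lines drop to between -1.75 and -4.92, and on the right 3 of the 4 stand at 2.39 to 5.05 in WL711 at 14 DAA only.

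The other gibberellin-regulated proteins of the table differed from the GASA protein described above. GASR3 fell by 2.88 ± 0.12 in IITR26 (adjusted p 6.1e-08 by limma) with a genotype difference of -2.60 at 28 DAA (adjusted p 1.5e-07). GASR9 had a genotype difference of -2.21 at 14 DAA (adjusted p 0.00059), and a gibberellin-regulated protein with no symbol one of -4.34 (adjusted p 4.6e-06). None of the 3 was higher in IITR26 at either stage, and in WL711 GASR9 and the protein with no symbol fell with age (-2.69 and -2.73). A gibberellin receptor of the GID1L2 type, the single probe set of gibberellin signalling in the table, had a genotype difference of -2.29 at 14 DAA (adjusted p 6.7e-06) and of -0.51 at 28 DAA. Of 4 probe sets with a symbol for gibberellin 20-oxidase, which makes active gibberellin precursors, 0 were called by limma between genotypes, with differences of 0.04 to 0.24 at 14 DAA and -0.05 to 0.02 at 28 DAA and 0 at an unadjusted p under 0.05. Over all probe sets 0.595% were called higher and 0.772% lower at 14 DAA, and 0.566% and 0.804% at 28 DAA. A count of 0 of 4 is near these shares.

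Other wall functions of the table mostly ran the other way from the expansins of LOC606352 at 14 DAA. Because the study chose the table on genotype differences of these arrays, many calls follow from that choice. The shares of all probe sets are therefore no fair comparison for the counts below, which are a description. There were 52 such probe sets without the 6, and they include the 4 expansins and 3 gibberellin-regulated proteins just described. Of the 52, the landrace had 42 lower and 3 higher at 14 DAA, with a median difference of -3.03 (over all probe sets 0.772% were lower and 0.595% higher). At 28 DAA 15 were lower and 1 higher, with a median of -0.58 (0.804% and 0.566% of all). The medians of all probe sets stood at 0.0098 and -0.0001. From 14 to 28 DAA, 39 of the 52 fell in WL711 (median -3.57, with 1.34% of all probe sets falling) and 19 in IITR26 (median -1.16, with 1.59% of all). Limma called 0 higher in either genotype, with 1 higher in each at an unadjusted p under 0.05. The unpaired test of the methods after Benjamini-Hochberg called 17 lower at 14 DAA and 0 at 28 DAA, and 17 that fell in WL711 and 13 in IITR26. Without that adjustment the test left the counts the same or close to those of limma.

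Among these, 17 probe sets belonged to pectin remodelling, nearly all of them named as inhibitors of pectin methylesterases, the enzymes that set how firmly pectin gels. At 14 DAA 15 of the 17 were lower in IITR26 (median -3.97, against 0.772% of all probe sets) and 16 fell with age in WL711 (median -4.71, against 1.34% of all). The one with the smallest adjusted p had a difference of -6.70 ± 0.14 at 14 DAA (adjusted p 9.4e-10 by limma). Of 16 structural wall proteins, such as extensins and hydroxyproline-rich glycoproteins, 14 were lower and 1 was higher at 14 DAA (0.772% and 0.595% of all). A second glycine-rich cell wall protein was among the lower ones (-2.32, adjusted p 8.5e-06) and fell by 2.21 in WL711, where the one described above was higher. The 9 other wall hydrolases, mainly beta-glucosidases and endo-1,3-beta-glucosidases, had 6 lower and 1 higher at that stage. The xyloglucan endotransglucosylase, which joins the glycans that tether cellulose, was lower by 2.47 (adjusted p 1.4e-05).

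The 3 wall probe sets called higher in IITR26 at 14 DAA were a pherophorin-C2 protein (6.69), a glucan synthase-like protein (4.46) and an alpha-L-arabinofuranosidase (3.79). Pherophorin-C2 was also higher at 28 DAA (5.76), as the single one of the 52. The glucan synthase-like and arabinofuranosidase probe sets fell in IITR26 (-3.88 and -3.02, adjusted p 6.1e-08 and 1.4e-05) and differed by 0.33 and 0.18 between genotypes at 28 DAA. A cellulose synthase A was lower in IITR26 at both stages (-2.19 and -2.11, adjusted p 0.00024 and 0.00023). No other probe set of the table was named an endoglucanase, though its endo-1,3-beta-glucosidases were counted above among the other wall hydrolases.

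**Figure D4:**
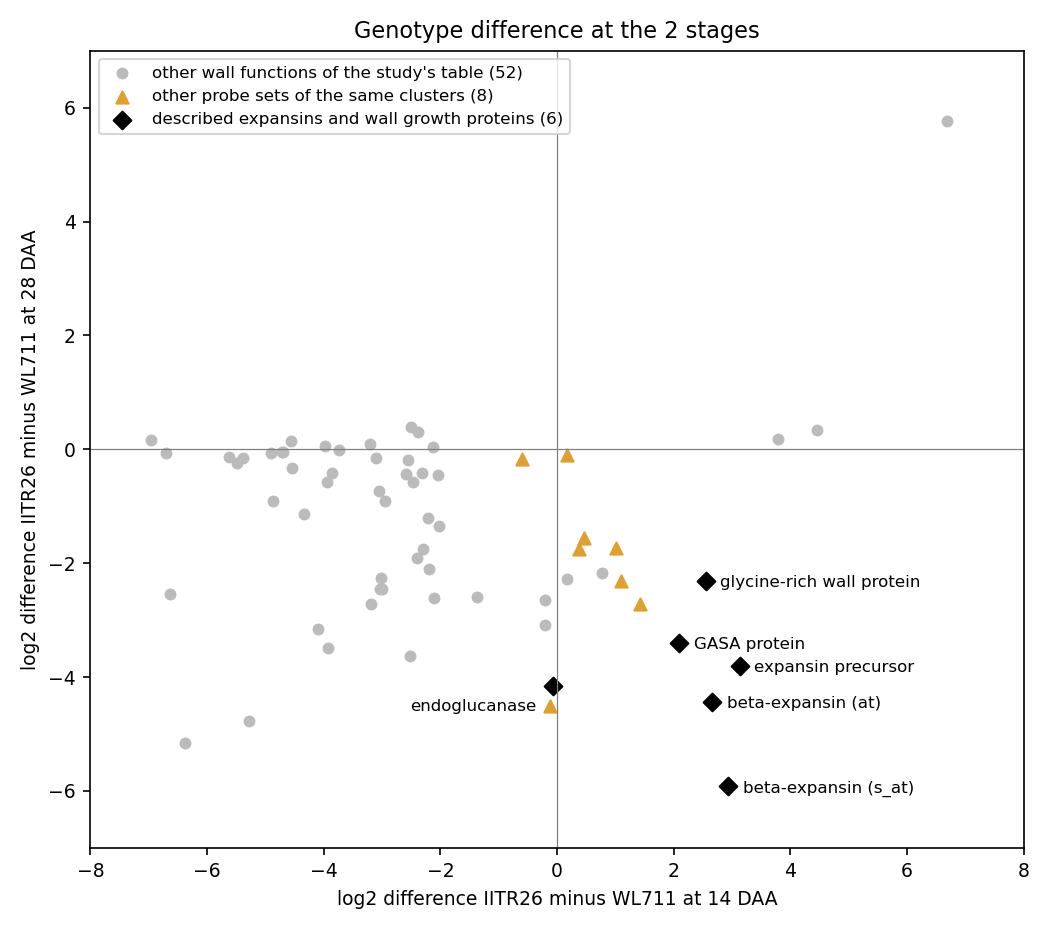
Log2 difference between genotypes (IITR26 minus WL711) at 14 DAA on the horizontal axis and at 28 DAA on the vertical axis. Diamonds are the 6 described probe sets, triangles the 8 further probe sets of their clusters and grey circles 52 other wall functions of the study's table, its other expansins and gibberellin-regulated proteins included. Of the diamonds, 5 lie to the right of 2 and all below -2, while most grey circles lie to the left, with a median of -3.03 at 14 DAA.

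Markers of cell division and of endosperm transfer cells, the cells that take up nutrients for the endosperm, were low in the same old IITR26 grains as the beta-expansin and the endoglucanase. Of 17 cell division probe sets of the table, 16 were lower in IITR26 than in WL711 at 28 DAA (median -3.28, against 0.804% of all probe sets). The study chose that table on genotype differences of these arrays, so many calls follow from the choice and the counts are no independent evidence. With age 11 fell in IITR26 (1.59% of all) and 0 in WL711 (1.34%) by limma, and in WL711 7 were lower and 3 higher at an unadjusted p under 0.05. On the old IITR26 arrays they averaged between -2.89 and -2.73, and elsewhere between -0.12 and 0.74. Among 18 probe sets with a symbol for histone H2A or H2B, 10 were lower at 28 DAA (0.804% of all) and 12 fell in IITR26 (1.59%). In WL711 2 of the 18 fell (1.34%), with a median of -1.23 and 14 lower at an unadjusted p under 0.05. Both transfer cell probe sets were lower in IITR26 at 28 DAA, PR9 (-7.16) and PR60 (-4.06). Their mean per array was -6.34 to -5.77 there and -0.80 to 1.07 elsewhere. Tubulin, of which microtubules are made, had 0 of 10 probe sets called in any comparison (at most 1.59% of all in either direction). The tubulin median was -1.06 between genotypes at 28 DAA, where 9 of the 10 were lower at an unadjusted p under 0.05. The part of these cells in the values of the 6 probe sets was not tested.

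Other marker lists moved differently, and those drawn from the function table have the same limit of its choice on genotype differences. Of 7 green tissue probe sets, 5 were lower in IITR26 at 14 DAA and 2 at 28 DAA (0.772% and 0.804% of all probe sets). Their mean per array was 2.47 to 2.99 in WL711 at 14 DAA, the group in which the 3 other expansins were high, and -1.85 to 0.89 in the other groups, and its part in those values was not tested either. Of 7 embryo and oil body proteins, 4 were higher in the landrace at each stage, while 2 were lower at 14 DAA and 1 at 28 DAA (higher 0.595% and 0.566% of all, lower 0.772% and 0.804%). Em, a protein of late embryos, rose with age in both genotypes for 5 of 5 probe sets, with medians of 10.24 in IITR26 and 10.37 in WL711 (1.33% and 0.958% of all probe sets rose). Limma called 0 of the 5 between genotypes (at most 0.804% of all in either direction). Of the 5, 1 was higher at 14 DAA and 2 at 28 DAA at an unadjusted p under 0.05. Of 4 endosperm storage proteins of the table, the landrace had 3 higher and 1 lower at 14 DAA (0.595% and 0.772% of all). At 28 DAA limma called 1 lower and 0 higher (0.804% and 0.566% of all), with 2 higher at an unadjusted p under 0.05. By symbol, 0 of 8 gliadin and 0 of 28 rbcL probe sets were called in any of the comparisons, with 4 gliadins higher, and 6 rbcL probe sets lower and 2 higher, in IITR26 at 14 DAA at an unadjusted p under 0.05.

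The probe set with a name whose course was most like the mean of the 6 was flavanone 3-hydroxylase, an enzyme of flavonoid synthesis, with a Pearson's r of 0.992 over the 12 arrays and 0.993 without replicate 1 of WL711 at 28 DAA. Its means were 1.58 ± 0.45 (SD, n = 3) and -3.64 ± 0.40 in IITR26 at 14 and 28 DAA and -0.77 ± 0.12 and 1.56 ± 0.99 in WL711. It thus combined the drop in old IITR26 grains with higher values in old than in young WL711 grains. Next came LOC543008 (r 0.978), LOC543359 (r 0.972), LTPL128, a protein of the protease inhibitor, seed storage and lipid transfer family (r 0.967), an egg apparatus protein (r 0.957) and LOC542862 (r 0.955). Of 61165 probe sets compared, 116 had an r of at least 0.9 with the mean of the 6. With the endoglucanase alone 2149 had such an r, and with the expansin precursor alone 58. The r are descriptions over 12 arrays in 4 groups, with no p.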

How the data were processed

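Total RNA of developing grains was hybridized to 12 arrays. The authors normalized the signals with RMA in GeneSpring GX, and deposited log2 values of all 61290 probe sets, unfiltered. The median of every probe set over the arrays is 0, which implies a centring step of which the methods say nothing. Spot brightness, background correction, detection and slide could therefore not be examined, and precision is limited by the number of arrays.

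From these values, 111 Affymetrix controls were left out and 61179 probe sets were fitted in R 4.3.3 with limma 3.58.1 (lmFit, eBayes, Benjamini-Hochberg), with 4 group means and 8 residual degrees of freedom. The script was tested on simulated data. Thresholds were those of the methods, an adjusted p of 0.01 and a log2 difference of 2. Differences are IITR26 minus WL711 or 28 minus 14 DAA, and the interaction is the difference at 28 DAA minus that at 14 DAA. The samples of a group are biological replicates per the study, but the labels do not say which plant a sample came from. Figures were drawn in Python 3.11.15 with matplotlib 3.10.9.

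The members, lists and tests were chosen with earlier results of these data known. Named are the 6 members, the other probe sets of their clusters, and the expansin, GASA and endoglucanase probe sets of the study's function table. The 6 named probe sets most like the mean of the members are named as well. The function table holds 580 probe sets chosen by the study on genotype differences. It gave the names and also decided which probe sets could enter the lists formed from it. Other named probe sets were chosen after their values were seen. Beyond the 6, probe sets are told apart in the text by function, suffix, symbol and values. The platform annotation gives 1 gene for 1273 probe sets, of which 1272 were matched by gene identifier, but the gene table holds no descriptions, so planned lists by gene name found 0 members. The lists were formed instead from the function table and, as an addition, from gene symbols. Alternatives were another quantile normalization, aligned array medians, the median of 3 arrays, the replicate number as a block, only the 6 arrays compared, the unpaired t-test of the methods, leaving out suffixes x, s and a (possible cross-hybridization), thresholds of 0.05 for the adjusted p or 1 for the log2 difference, and leaving out each of the arrays. No sequences or genome positions were used. Columns of the authors' own fold changes and p-values in the function table were not used.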

Additional observations from a re-analysis of the deposited data

Results flagged for a closer look

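Of the 6 described probe sets, 5 had arrays that moved in opposite directions under the same contrast in the 2 genotypes or stages, a difference that was not tested because they were chosen on these values. The count largely restates that choice, and the share of all probe sets with such a course was not counted. For the beta-expansin probe set with the suffix at and the glycine-rich protein all IITR26 arrays lay above WL711 at 14 DAA and below it at 28 DAA, and the difference between genotypes shifted by -7.10 and -4.86 on the log2 scale. For the s_at probe set of the beta-expansin, the expansin precursor and the GASA protein the older grains were also lower in IITR26 and higher in WL711 on all arrays, with shifts of -8.86, -6.94 and -5.50.

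The interaction of limma was called lower on 5 further probe sets of the same clusters. These were the second probe set of the endoglucanase transcript (-4.39, adjusted p 0.00013), those of 2 other transcripts of the glycine-rich cluster (-4.15, adjusted p 8.2e-05, and -2.74, adjusted p 0.0021), the second one of the GASA transcript (-3.40, adjusted p 2.4e-05) and that of another transcript of the GASA cluster (-2.13, adjusted p 0.0030). The last was -1.99 without replicate 3 of WL711 at 14 DAA and -1.91 without replicate 2 of WL711 at 28 DAA, short of the fold threshold, which it also missed narrowly without replicate 1 of WL711 at 28 DAA.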

How the results depend on the processing

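No direction reversed under any alternative tried, for the medians of the 6 probe sets and the called probe sets of their clusters. Repeated quantile normalization moved the median of the 6 at 14 DAA from 2.60 to 3.25 and the interaction median from -6.22 to -7.21, and the cause was not tested. Without 1 array the medians ranged from 2.35 to 2.79 at 14 DAA, -4.31 to -3.71 at 28 DAA, -5.35 to -4.68 in IITR26, 2.02 to 2.67 in WL711 and -6.46 to -5.82 for the interaction.

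Among the 52 wall functions, the lower count at 14 DAA (42) was 17 by the t-test of the methods after Benjamini-Hochberg and 25 after quantile normalization, and the lower count at 28 DAA (15) was 0 and 8. The adjusted t-test gave 0 higher at 28 DAA (1) and 17 that fell in WL711 (39). Without the adjustment the t-test left the counts the same or close to those of limma. Quantile normalization or a log2 difference of 1 gave 1 that rose in each genotype (0). Without 1 array the lower counts were 36 to 44 at 14 DAA, 13 to 18 at 28 DAA, 18 to 20 in IITR26 and 38 to 40 in WL711.

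For the 8 further probe sets of the clusters, the 3 lower at 28 DAA became 0 by the t-test after Benjamini-Hochberg and 5 after quantile normalization. They became 1 without the suffixes (fewer probe sets) and 6 at a log2 difference of 1. The 5 that rose in WL711 became 2 by the adjusted t-test and 1 without the suffixes. The 1 that fell became 0 by the adjusted t-test and 2 at a log2 difference of 1, which also gave 2 that fell in IITR26 (1) and 2 higher at 14 DAA (0). Without the adjustment the t-test left the counts the same or close to those of limma. Without 1 array the fall in WL711 was called for 0 to 2, with 2 without replicate 1 of WL711 at 14 DAA and 0 without replicate 3 of it or replicate 1 of WL711 at 28 DAA.

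Same-numbered arrays of different groups had an r of deviations of -0.07 to 0.19, with a median of 0.050 and 2 of 18 pairs over 0.1. Arrays of unlike number had a median of -0.023, with 0 of 36 pairs over 0.1. Of 6 arrays, 5, 2, 6 and 5 agreed best with their own number in the 4 comparisons. Same-numbered arrays were thus weakly alike in most comparisons, and the main fit did not pair them. With the replicate number as a block, the interaction of the second probe set on the transcript of the glycine-rich protein (-2.01) passed the threshold (adjusted p 0.0023), and no other call of a cluster probe set changed. The 3 arrays of a group and the unknown distance from background limit all of these values.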
